A study of Mus musculus with 24 samples.

Results

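Accessible chromatin was followed at 6 genes of plasma cell fate, Prdm1, Irf4, Xbp1, Sdc1, Tnfrsf17 and Jchain, in germinal center (GC) B cells of mice that carried 1 deleted copy of Crebbp, of Kmt2d, or of both. Crebbp encodes a histone acetyltransferase and Kmt2d a histone H3 lysine 4 methyltransferase, and both act at enhancers. The members were the consensus peaks that overlapped the GENCODE gene body of each gene on mm10 extended by 50 kb on each side. By this rule 70 of the 65483 peaks were members: 17 at Irf4, 14 at Jchain, 12 at Sdc1, 10 at Prdm1, 10 at Xbp1 and 7 at Tnfrsf17. The question was whether the regulatory DNA of genes that take GC B cells out of the reaction as plasma cells differed between the 4 genotypes.

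ATAC-seq, which tags accessible DNA with adapters through the enzyme Tn5, was run on GC B cells sorted from the spleen 10 days after immunization with sheep red blood cells (SRBC), with 1 library per mouse. The labels give the genotypes as WT (4 mice), C_het_KO (C, 4 mice), K_het_KO (K, 4 mice) and CK_het_DKO (CK, 5 mice). Per the study's methods, all 4 groups carried 1 Cγ1-Cre allele, which recombines in B cells that switch on the Cγ1 germline transcript. C added 1 floxed Crebbp allele, K added 1 floxed Kmt2d allele and CK added both, each beside a wild-type copy, on a C57BL/6J background in age-matched littermates. Deletion therefore reached only cells that had expressed the Cre, and cells that escaped it cannot be told apart within a mutant library.

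Depth ran from 17483706 to 21857738 fragments in peaks per library. Levels are CPM, fragments in a peak scaled to the depth of the library with edgeR's TMM factors. A peak or locus was called where the quasi-likelihood test of edgeR gave an adjusted p under 0.01. The sum over the 5 peaks of Crebbp was 43.3 to 47.5 CPM for WT, 41.3 to 46.4 for C, 44.9 to 52.4 for K and 48.8 to 51.9 for CK mice, and that over the 4 peaks of Kmt2d ran from 120.5 to 136.0 CPM in all libraries. Accessibility over a whole gene gives no check of a deletion on 1 allele. Peaks of the Y chromosome had signal in 9 libraries (2 WT, 2 C, 3 K and 2 CK) and 1 fragment or none in the other 8, although the study describes female mice. For this reason CK was also compared with WT within the libraries with and without this signal. Promoter peaks were found for 7 of 7 GC B cell markers, including Bcl6, and for 4 of 4 markers of all B cells. Promoter peaks were found for 0 of 8 T cell markers and 2 of 6 myeloid markers, whose sum stayed between 6.13 and 8.71 CPM per library with overlapping ranges in the 4 genotypes. All 6 naive follicular B cell markers had a promoter peak, whose sum was 182.8 to 190.7 CPM in WT and 166.7 to 181.4 CPM in CK. The peak of Fcer2a, the low-affinity IgE receptor of resting B cells, fell by 0.71 on the log2 scale in CK (adjusted p = 8.8e-05 by edgeR's quasi-likelihood test). It was the 1 marker of the 6 called: Ccr7 gave -0.39 (adjusted p = 0.019), and Cr2, Cd55 and Klf2 gave 0.04, 0.02 and 0.02. Fewer cells of a type and less open DNA per cell cannot be told apart in such bulk libraries, and the part of the naive markers in the results below was not tested.

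Plasma cells arise when an activated B cell gives up its B cell program and turns its metabolism to antibody secretion. IRF4, a transcription factor whose level rises with the strength of signalling, acts early, and it takes part in switching on Prdm1. PRDM1, also named BLIMP1, is a repressor that shuts down genes of GC B cells. XBP1 drives the expansion of the secretory apparatus. Sdc1 (CD138) and Tnfrsf17 (BCMA, a receptor for the survival factors BAFF and APRIL) are surface proteins of plasma cells, and Jchain encodes the joining chain that links the units of secreted IgM and IgA.

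In CK the accessibility of 4 member peaks was lower than in WT, and that of 0 was higher. These were 2 peaks beside Jchain, 1 inside Tnfrsf17 and 1 inside Prdm1, and their mean level fell by 18.5% at Tnfrsf17, fell by 23.6% at Prdm1, and fell by 28.0% and fell by 22.7% at Jchain. The share of member peaks called, 5.71%, lay near the 6.84% of all 65483 peaks called in CK against WT. The 4 lower peaks made up the same 5.71% of members, beside 3.3% of all peaks that were lower and 3.54% that were higher in CK. In C and in K, 0 of the 70 peaks were called against WT by edgeR, where 0.16% and 1.48% of all peaks were called, and at an unadjusted p under 0.05 there were 7 in C and 13 in K, near the 8.9% and 20.6% of all peaks with such a p. DESeq2 called 0 in C and 1 in K, the Jchain downstream peak.

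The called peaks differed in size, but all of them lay more than 1 kb from the start of any protein-coding gene. The Jchain and Prdm1 peaks are shown by the 300 bases around their centres, because the results turn on the accessibility of these stretches. They are read from the plus strand of GRCm38 and no base is in capitals, since none of the motifs searched was found in them.
Jchain downstream peak, chr5:88508834-88509133, plus strand: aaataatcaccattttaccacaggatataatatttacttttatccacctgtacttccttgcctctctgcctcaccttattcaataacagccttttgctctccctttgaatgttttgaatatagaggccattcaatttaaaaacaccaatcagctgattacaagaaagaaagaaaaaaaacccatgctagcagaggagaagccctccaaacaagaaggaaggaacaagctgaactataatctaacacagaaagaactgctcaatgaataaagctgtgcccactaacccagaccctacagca
Jchain upstream peak, chr5:88534543-88534842, plus strand: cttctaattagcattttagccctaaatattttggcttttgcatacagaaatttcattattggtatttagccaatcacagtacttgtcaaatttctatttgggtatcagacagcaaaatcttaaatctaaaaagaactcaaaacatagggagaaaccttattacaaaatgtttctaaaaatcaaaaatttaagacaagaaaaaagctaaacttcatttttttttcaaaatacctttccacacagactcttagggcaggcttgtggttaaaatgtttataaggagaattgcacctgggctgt
Prdm1 intragenic peak, chr10:44448981-44449280, plus strand: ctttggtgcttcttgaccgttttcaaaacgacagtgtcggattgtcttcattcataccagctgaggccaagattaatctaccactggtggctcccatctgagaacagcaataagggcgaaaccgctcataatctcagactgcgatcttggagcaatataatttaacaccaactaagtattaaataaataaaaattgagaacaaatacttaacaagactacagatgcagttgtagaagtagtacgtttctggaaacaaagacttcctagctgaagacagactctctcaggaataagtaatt

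The motifs were short cores of factors that act in this cell fate: GAANNGAAA of the ETS-IRF composite element, GAAANNGAA of the interferon-stimulated response element (ISRE), AGNGAAAG of PRDM1, TGANTCA of AP-1 and GACGTG of XBP1, each on both strands. The first 3 cores resemble each other and can overlap. Of all 65483 peaks cut to 300 bases in the same way, 10.9% held the ETS-IRF core, 10.6% the ISRE core, 9.35% the PRDM1 core, 8.92% AP-1 and 5.1% the XBP1 core. Among the 70 member peaks these were found in 6, 6, 10, 12 and 3, in that order, and in 0 of the 4 called peaks. The absence of these letters from a 300-base window says nothing about the binding of the factors, and the called peaks are longer than the window. The 3 windows shown were 30.7% to 39.0% G and C, where the median over all peaks was 48.7%.

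Jchain (chromosome 5, 88519809 to 88527891, minus strand) held 2 of the 4 called peaks. The peak with the lowest p of all members, at 88508118 to 88509848, lies between genes 18.9 kb downstream of the Jchain start. Its level was 37.5, 34.2, 36.2 and 41.1 CPM for the WT mice, 30.8, 31.7, 38.6 and 33.8 for C, 28.5, 28.1, 33.2 and 31.5 for K, and 26.9, 24.2, 27.9, 26.1 and 28.9 for CK mice. Every CK and every K mouse was below every WT mouse, whereas C overlapped WT. Of all peaks, 6.39% had every CK mouse below every WT mouse, and the share for K was not counted. From a WT mean of 37.3 ± 2.92 CPM (SD, n = 4) to a CK mean of 26.8 ± 1.79 CPM (SD, n = 5), the log2 fold change was -0.47 (SE 0.07, adjusted p = 9.5e-05 by edgeR's quasi-likelihood test). The same comparison gave -0.14 (SE 0.07, adjusted p = 0.59) for C and -0.29 (SE 0.07, adjusted p = 0.021) for K in that test.

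This was also the single member peak called between CK and C, by -0.33 on the log2 scale (SE 0.07, adjusted p = 0.0076 by edgeR), where 1.68% of all peaks were called. It differed from K by -0.18 (SE 0.07, adjusted p = 0.55 by edgeR). The order of the means was WT, C, K and CK, and the neighbours WT and C, and K and CK, did not differ beyond the test's threshold. C against K was not tested. The CK change minus those of C and K added together was -0.04 (SE 0.1, adjusted p = 1 by edgeR). The call between CK and C was lost in 6 of the 9 fits that left out 1 mouse, all but those without C replicate 1, CK replicate 3 or CK replicate 5, with GC content bins, and within the libraries with or without Y signal.

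The second Jchain peak, at 88533506 to 88535878, lies between genes 6.8 kb upstream of the start. The mice had 30.9, 31.5, 32.6 and 35.1 CPM for WT, 27.8, 27.0, 33.3 and 34.3 for C, 24.3, 26.1, 30.2 and 30.2 for K and 24.3, 26.5, 22.5, 23.5 and 29.1 for CK mice. CK and K lay below WT without overlap, whereas C overlapped WT. The log2 fold change of CK was -0.37 (SE 0.08, adjusted p = 0.0036 by edgeR), of K -0.23 (SE 0.09, adjusted p = 0.13) and of C -0.09 (SE 0.09, adjusted p = 0.82). Within libraries with Y signal the CK change was -0.4 (adjusted p = 0.029 by edgeR), and within those without it -0.38 (adjusted p = 0.032). The call was lost without WT replicate 3 (adjusted p = 0.012 by edgeR), WT replicate 4 (0.021), or CK replicate 1, 3 or 4 (0.011 each). The downstream peak gave -0.45 (adjusted p = 0.0081) and -0.51 (adjusted p = 0.0062) in the same edgeR fits, and was the member peak called in both.

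The promoter peak of Jchain, at 88527611 to 88528305 over the first exon, stood at 20.1 ± 1.33 CPM (SD, n = 4) for WT, 19.8 ± 1.6 (SD, n = 4) for C, 17.6 ± 1.34 (SD, n = 4) for K and 16.5 ± 1.87 (SD, n = 5) for CK mice. The mice of WT and CK overlapped, and the change of -0.29 (SE 0.08) did not pass the threshold (adjusted p = 0.021 by edgeR). It was called by DESeq2 (adjusted p = 0.0096), with the replicate block (-0.31, adjusted p = 0.004 by edgeR) and without CK replicate 4 (-0.34, adjusted p = 0.0097 by edgeR). The block groups mice by replicate number, a pairing that was not shown for CK and WT. Within libraries with and without Y signal the change was -0.12 (adjusted p = 0.63) and -0.43 (adjusted p = 0.031) by edgeR. A pair of weaker peaks farther downstream, 27.7 and 31.6 kb from the start, gave -0.42 (SE 0.13, adjusted p = 0.025) and -0.44 (SE 0.14, adjusted p = 0.037) by edgeR, with every CK mouse below every WT mouse.

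**Figure D1:**
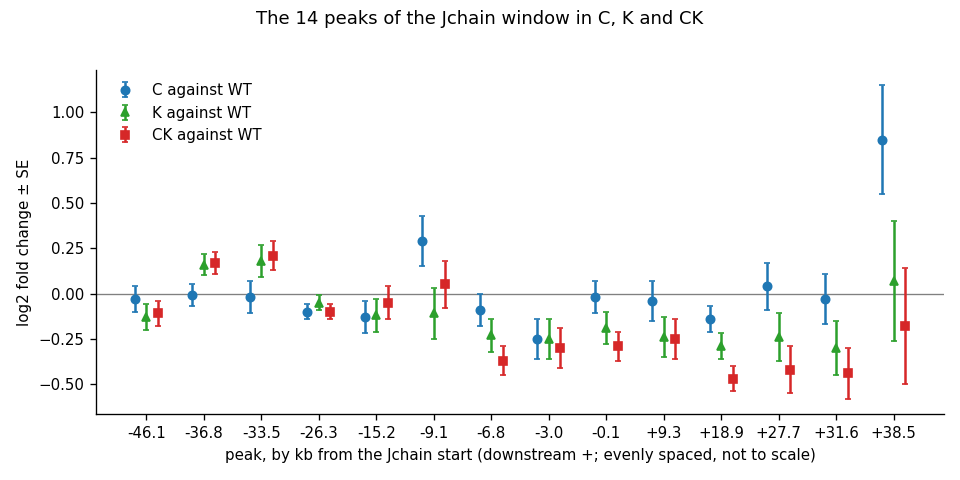
Log2 fold change (y axis, ± SE) of each of the 14 peaks of the Jchain window in C (circles), K (triangles) and CK (squares) against WT, ordered along the x axis by kb from the Jchain start. In CK the values from -6.8 to +38.5 kb are all below 0, down to -0.47 at +18.9 kb, while the peaks at -36.8 and -33.5 kb are at 0.17 and 0.21.

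Of the 14 peaks in this window, 11 were below 0 in CK, where 49.4% of all peaks were. At an unadjusted p under 0.05, 8 were lower and 2 were higher, where 28.9% of all peaks had such a p in either direction. For 6 peaks the nearest start of a protein-coding gene was that of Jchain, and 5 of these were below 0, with a median log2 fold change of -0.29 for CK, -0.24 for K and -0.07 for C. For the other 8 it was a start of Enam, Utp3 or Rufy3, and the median was -0.1 in CK. The highest peak of the window, over the start of Utp3 with 70.6 CPM on average, changed by -0.1 (SE 0.04, adjusted p = 0.13 by edgeR).

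Summed over the window, Jchain was the 1 member locus called in CK. The sums were 304.2, 301.7, 303.9 and 327.0 CPM for WT, 293.6, 285.4, 297.6 and 305.7 for C, 287.8, 289.0, 286.6 and 296.6 for K and 278.8, 277.1, 273.9, 281.5 and 297.4 for CK mice. All CK and all K mice were below all WT mice. WT replicate 4 stood above the other WT mice. The log2 fold change in CK was -0.13 (SE 0.03, adjusted p = 0.0026 by edgeR over 18069 gene windows, of which 11.7% were called), and without WT replicate 4 it was -0.11 (adjusted p = 0.02). K gave -0.09 (SE 0.032, adjusted p = 0.066) and C -0.07 (SE 0.032, adjusted p = 0.5) by edgeR, against 2.66% and 0.454% of all windows called. With the window cut to 10 kb on each side, the CK change was -0.36 (adjusted p = 0.00012 by edgeR) and the K change -0.24 (adjusted p = 0.015). Within libraries with and without Y signal the 50-kb sum changed by -0.12 (adjusted p = 0.057) and -0.15 (adjusted p = 0.039) by edgeR.

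**Figure D2:**
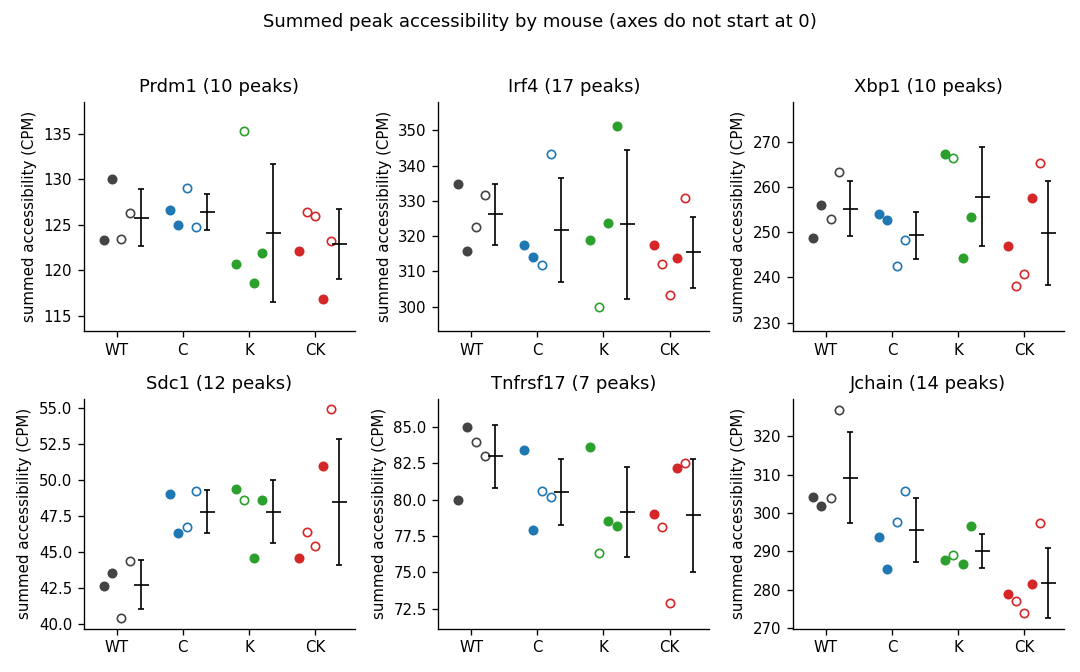
Summed accessibility (y axis, CPM, not starting at 0) of all peaks within 50 kb of each of the 6 genes, with 1 point per mouse (filled with, open without Y chromosome signal) and the mean ± SD beside the points. Jchain falls from 301.7 to 327.0 CPM in WT to 273.9 to 297.4 CPM in CK without overlap, Sdc1 lies higher in every mutant genotype than in WT, and the other 4 genes overlap.

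At Tnfrsf17 (chromosome 16, 11313812 to 11320074, plus strand) 1 of 7 peaks was called in CK, where 6.84% of all peaks were. This peak, at 11315337 to 11317954, covers intron sequence 2.8 kb downstream of the start and is the highest of the window. It had 37.8, 43.0, 43.2 and 44.9 CPM for WT, 41.0, 37.0, 41.0 and 42.3 for C, 37.5, 33.7, 37.2 and 36.0 for K and 33.4, 33.9, 31.6, 35.9 and 37.6 for CK mice. All CK and all K mice lay below all WT mice, the closest being 37.6 CPM in CK and 37.8 in WT. The log2 fold change was -0.3 (SE 0.06, adjusted p = 0.0014 by edgeR) in CK, -0.23 (SE 0.06, adjusted p = 0.032) in K and -0.07 (SE 0.06, adjusted p = 0.81) in C. CK differed from C by -0.23 (SE 0.06, adjusted p = 0.021 by edgeR) and from K by -0.07 (SE 0.06, adjusted p = 0.88). Within libraries with and without Y signal the CK change was -0.24 (adjusted p = 0.12 by edgeR) and -0.36 (adjusted p = 0.015).

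No consensus peak lay within 1 kb of the Tnfrsf17 start. The next highest peak of its window, over the start of the neighbour Snx29, changed by 0.15 in the other direction (SE 0.06, adjusted p = 0.1 by edgeR). The Tnfrsf17 sum was 83.0 ± 2.18 CPM (SD, n = 4) for WT, 80.5 ± 2.29 (SD, n = 4) for C, 79.1 ± 3.12 (SD, n = 4) for K and 78.9 ± 3.88 (SD, n = 5) for CK mice. The groups overlapped, and the CK change was -0.07 (SE 0.039, adjusted p = 0.18 by edgeR). In the 5 Mb around the called peak, 6.76% of 207 other peaks were lower in CK, as were 6.41% of 78 around the Jchain peaks and 2.07% of 193 around the Prdm1 peak, beside the 3.3% of all peaks.

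Prdm1 (chromosome 10, 44437177 to 44528501, minus strand) had 1 called peak among its 10, where 6.84% of all peaks were called in CK. It was also the single Prdm1 peak with an unadjusted p under 0.05 in CK, beside 28.9% of all peaks. The GENCODE gene starts far upstream of the promoter that RefSeq gives, so distances for Prdm1 depend on the start used. The called peak, at 44447834 to 44450426, overlaps an exon 8.1 kb downstream of the nearest annotated transcript start and 79.4 kb downstream of the gene start. It had 11.5, 11.4, 12.1 and 12.9 CPM for WT, 9.91, 10.6, 10.5 and 11.1 for C, 8.49, 10.1, 9.26 and 10.8 for K and 9.75, 9.53, 9.66, 8.42 and 8.41 for CK mice. All mutant mice of all 3 genotypes were below all WT mice. The share of all peaks with such a separation was not counted for C or K. The log2 fold change was -0.39 (SE 0.09, adjusted p = 0.004 by edgeR) in CK, -0.31 (SE 0.09, adjusted p = 0.049) in K and -0.19 (SE 0.09, adjusted p = 0.56) in C. The CK call was lost without WT replicate 3 (adjusted p = 0.013 by edgeR), WT replicate 4 (0.021) or CK replicate 4 (0.013). Within libraries with and without Y signal the CK change was -0.35 (adjusted p = 0.17) and -0.43 (adjusted p = 0.053) by edgeR.

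At both Prdm1 promoters the means of WT and CK differed by less than the spread between mice. The peak over the RefSeq promoter, at 44457966 to 44459514, had 44.1 CPM for WT, 45.2 for C, 43.8 for K and 44.1 for CK mice, with an SE of 0.05 on the log2 change in CK. The peak beside the far start, at 44528912 to 44530182, had 38.7, 37.8, 38.3 and 38.0 CPM in the same order. The Prdm1 sum was 125.8 ± 3.12 CPM (SD, n = 4) for WT and 122.9 ± 3.81 (SD, n = 5) for CK mice, a log2 change of -0.03 (SE 0.036, adjusted p = 0.54 by edgeR).

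**Figure D3:**
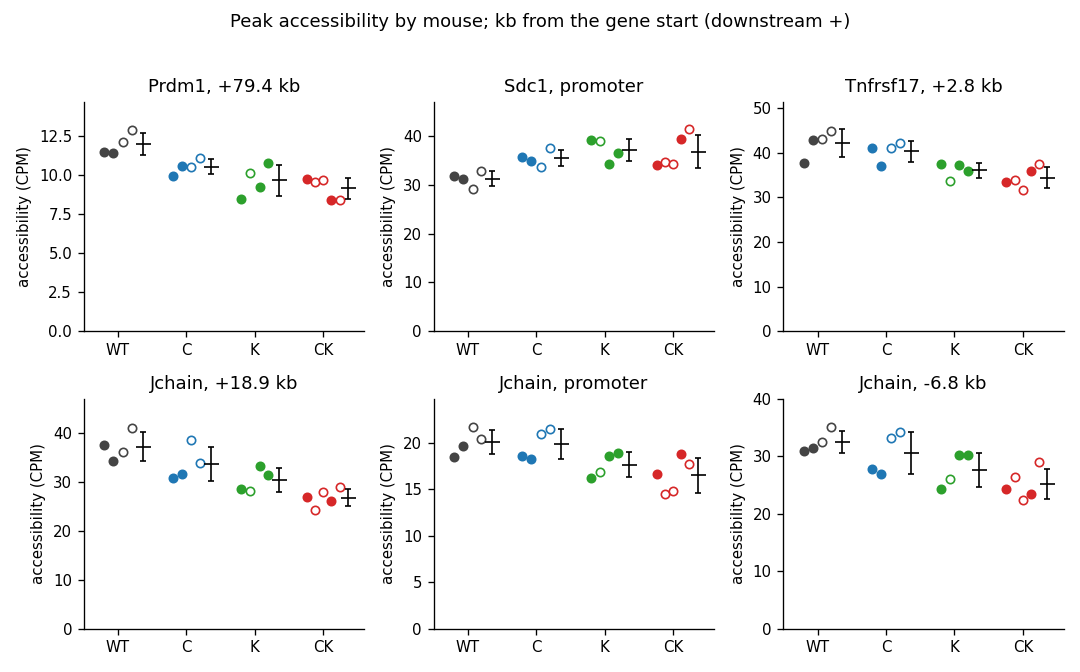
Accessibility (y axis, CPM from 0) of the 4 called peaks and of the Sdc1 and Jchain promoter peaks in each mouse of WT, C, K and CK, filled with and open without Y chromosome signal, with the mean ± SD beside the points. In the 4 called peaks every CK mouse lies below every WT mouse, and in the Sdc1 promoter every CK mouse lies above.

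Irf4 (chromosome 13, 30749226 to 30766976, plus strand) had 17 peaks, of which 0 were called in CK by edgeR at an adjusted p under 0.01 and 6 had an unadjusted p under 0.05. Of all peaks, 6.84% were called and 28.9% had such an unadjusted p. At Irf4 DESeq2 called 1, the short intronic peak described last. The promoter peak, the highest of all members, had 84.8 CPM for WT, 83.3 for C, 88.3 for K and 87.2 for CK mice, a log2 change of 0.04 in CK (SE 0.05, adjusted p = 0.64 by edgeR). The strongest distal peak, 19.8 kb upstream, had 76.2 CPM for WT, 74.3 for C, 72.7 for K and 69.6 for CK mice. The CK change was -0.13 (SE 0.05, adjusted p = 0.072 by edgeR). Its neighbour 11.7 kb upstream gave -0.17 (SE 0.06, adjusted p = 0.055 by edgeR), and both were called once the replicate number was a block. Deviations of same-numbered WT and CK mice correlated at -0.07 to 0.2, so the number was not shown to pair them. Within libraries with and without Y signal the peak at 19.8 kb gave -0.11 (adjusted p = 0.43) and -0.17 (adjusted p = 0.14) by edgeR.

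A short intronic Irf4 peak of 256 bp, 6.9 kb downstream of the start, had a positive change. Its mean was 1.51 ± 0.198 CPM (SD, n = 4) for WT and 2.64 ± 0.619 (SD, n = 5) for CK, with overlapping mice, and the log2 change was 0.8 (SE 0.21, adjusted p = 0.013 by edgeR). The Irf4 sum was 326.2 ± 8.74 CPM (SD, n = 4) for WT and 315.5 ± 10.1 (SD, n = 5) for CK mice, a change of -0.05 (SE 0.038, adjusted p = 0.37 by edgeR), and -0.05 both with and without Y signal.

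Xbp1 (chromosome 11, 5520659 to 5525893, plus strand) had 0 of 10 peaks called in CK by edgeR, where 6.84% of all peaks were called. The Xbp1 peaks changed between -0.13 and 0.07 on the log2 scale in CK (DESeq2 also called 0). Of these, 0 had an unadjusted p under 0.05, beside 28.9% of all peaks. The promoter peak, over the first exon, had 68.3 ± 3.1 CPM (SD, n = 4) for WT and 67.4 ± 2.08 (SD, n = 5) for CK mice, a change of -0.02 (SE 0.05, adjusted p = 0.84 by edgeR). The sum was 255.2 ± 6.16 CPM (SD, n = 4) for WT, 249.3 ± 5.2 (SD, n = 4) for C, 257.9 (from 244.4 to 267.2 over 4 mice) for K and 249.8 ± 11.5 (SD, n = 5) for CK mice. The CK change was -0.03 (SE 0.034, adjusted p = 0.53 by edgeR), with -0.01 and -0.05 within libraries with and without Y signal.

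Sdc1 (chromosome 12, 8771323 to 8793715, plus strand) was the member whose sum had a positive log2 change in CK, with the other 5 below 0. Its promoter peak, at 8770810 to 8773179, had 31.8, 31.3, 29.2 and 32.8 CPM for WT, 35.7, 34.9, 33.6 and 37.6 for C, 39.1, 38.9, 34.2 and 36.6 for K and 34.1, 34.7, 34.3, 39.5 and 41.4 for CK mice. Every mutant mouse was above every WT mouse. Of all peaks, 6.59% had every CK mouse above every WT mouse, and the shares for C and K were not counted. The peak also overlaps an exon of Gm4755, and ATAC-seq counts carry no strand. No change passed the threshold in edgeR with TMM scaling alone, all mice and no block. The log2 fold change was then 0.18 for C (SE 0.07, adjusted p = 0.37 by edgeR), 0.25 for K (SE 0.07, adjusted p = 0.027) and 0.23 for CK (SE 0.06, adjusted p = 0.013). It was called in CK by DESeq2, with loess offsets, with scaling to total counts and without CK replicate 3 (0.26, adjusted p = 0.0099 by edgeR). In K it was called with the replicate block, whose pairing was not shown for K and WT. Within libraries with and without Y signal the CK change was 0.21 (adjusted p = 0.18) and 0.25 (adjusted p = 0.12) by edgeR. The Sdc1 sum rests largely on this peak, since 11 of the 12 peaks in the window were under 5 CPM, and it gave 0.18 (SE 0.056, adjusted p = 0.021 by edgeR) in CK.

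The Sdc1 promoter peak was also the member peak with the highest content of G and C, 65.1%. When each library was centred within 20 bins of GC content, its change in CK went from 0.23 to 0.04 and that of the sum from 0.18 to 0.04 (adjusted p = 0.58 by edgeR). In C the Sdc1 sum gave 0.16 before and 0.16 after this centring (adjusted p = 0.21 by edgeR). In K it went from 0.16 to 0.05 (adjusted p = 0.61 by edgeR). Over the 70 member peaks the log2 fold change in CK and the GC content had a Pearson r of 0.41, and 0.28 over all 65483 peaks. All these points come from the same 17 libraries. With GC centring the r over members was 0.22, and 2 of the 4 called peaks kept their call, the Jchain downstream peak at -0.38 (adjusted p = 0.00026 by edgeR) and the Tnfrsf17 peak at -0.25 (adjusted p = 0.0042). The Jchain upstream peak then gave -0.25 (adjusted p = 0.028) and the Prdm1 peak -0.32 (adjusted p = 0.013). The part of GC content in the changes was not tested beyond these values.

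**Figure D4:**
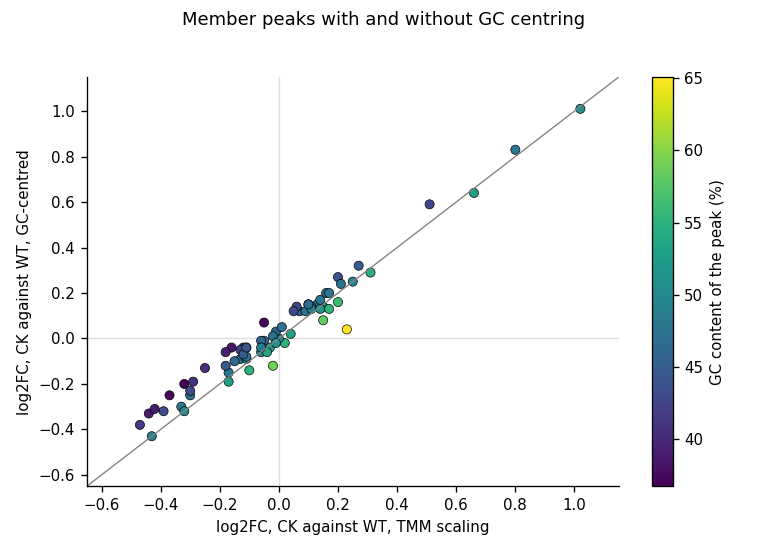
Log2 fold change of CK against WT for the 70 member peaks with TMM scaling (x axis) and after centring each library within 20 bins of GC content (y axis), coloured by the GC content of the peak, with the line of equal values. The Jchain upstream peak, at 37.3% G and C, moves from -0.37 to -0.25, and the Sdc1 promoter peak at 65.1% moves from 0.23 to 0.04.

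The 250 bases before the RefSeq start (GRCm38.p6) of 3 members are shown in the direction of the gene. Jchain and Sdc1 are the members whose sums changed most in either direction, and Prdm1 holds a motif match, in capitals, under a promoter peak with equal means in WT and CK.
Jchain promoter, chr5:88527898-88528147, minus strand: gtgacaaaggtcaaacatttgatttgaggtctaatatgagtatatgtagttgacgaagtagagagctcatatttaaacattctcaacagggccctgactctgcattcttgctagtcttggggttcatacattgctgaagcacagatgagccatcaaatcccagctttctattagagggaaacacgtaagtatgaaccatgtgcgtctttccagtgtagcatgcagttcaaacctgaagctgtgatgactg
Sdc1 promoter, chr12:8771146-8771395, plus strand: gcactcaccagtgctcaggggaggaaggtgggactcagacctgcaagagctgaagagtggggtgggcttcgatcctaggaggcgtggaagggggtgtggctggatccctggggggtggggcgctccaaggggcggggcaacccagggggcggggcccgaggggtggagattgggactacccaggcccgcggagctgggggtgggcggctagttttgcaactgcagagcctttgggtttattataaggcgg
Prdm1 promoter, chr10:44458749-44458998, minus strand: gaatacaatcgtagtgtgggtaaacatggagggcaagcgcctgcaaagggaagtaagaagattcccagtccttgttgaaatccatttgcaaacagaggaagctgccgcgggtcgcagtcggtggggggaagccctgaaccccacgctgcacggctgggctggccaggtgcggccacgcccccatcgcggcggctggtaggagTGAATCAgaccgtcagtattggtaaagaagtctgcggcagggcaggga

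The Sdc1 stretch was 66.0% G and C, that of Prdm1 59.2% and that of Jchain 42.0%. The match in Prdm1 is TGANTCA of AP-1, which 6.75% of the 32817 promoters in the RefSeq table hold in the same 250 bases. All 6 members had an entry in that table, and besides this match the same 5 motifs were found once, as the ISRE core before the start of Tnfrsf17, which 7.12% of promoters hold. Of the 70 member peaks, 11 lay within 1 kb of a start of a protein-coding gene. None of those 11 was called in CK by edgeR, where 10.1% of the 16179 such peaks of the whole table were. Of the other 59 member peaks 6.78% were called, all lower, beside 5.77% of 49304 such peaks called and 3.89% called lower.

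**Figure D5:**
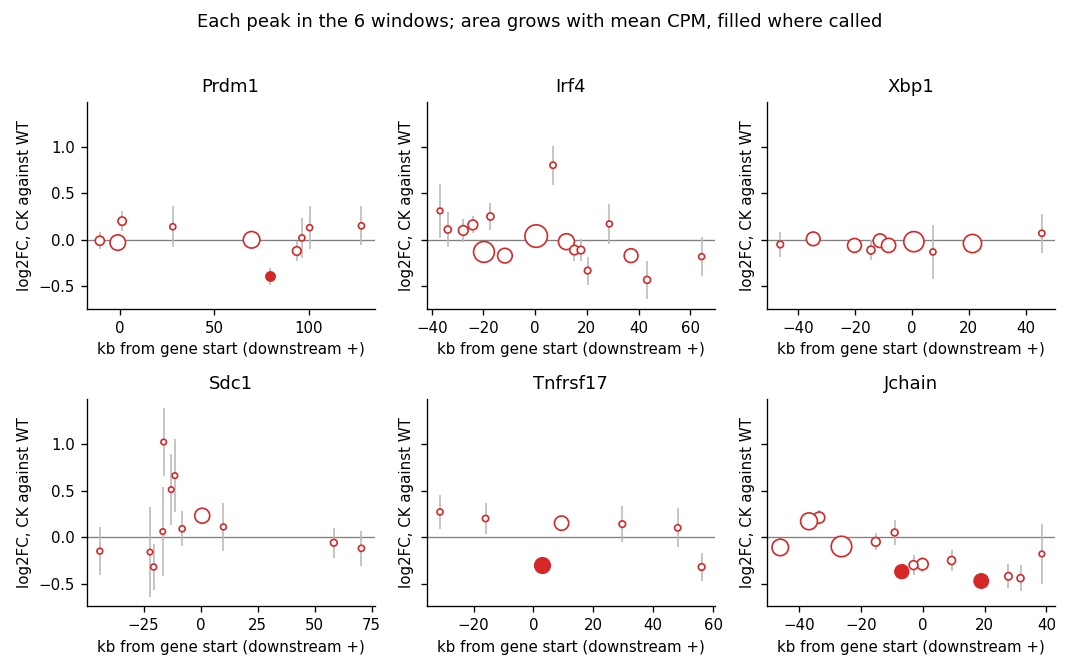
Log2 fold change of CK against WT (y axis, ± SE) for every peak of each window by its distance in kb from the gene start (x axis), with point area growing with mean CPM and filled points for called peaks. The filled points are 1 peak at Prdm1, 1 at Tnfrsf17 and 2 at Jchain, all below 0, and the widest errors belong to the weakest peaks.

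Over all 70 member peaks the median log2 fold change was 0.006 for C, -0.046 for K and -0.024 for CK, where the median over all peaks in CK was 0.003. In CK 40 of the 70 were below 0. Every CK mouse was below every WT mouse in 6 of the 70 member peaks and above in 1, where 6.39% and 6.59% of all peaks did so. Such shares were not counted for C, for K or for locus sums. Levels ranged from 0.289 to 86.0 CPM, and 8 peaks were under 1 CPM, 6 of them at Sdc1. Member peaks called in CK against K numbered 0 by edgeR (5 at an unadjusted p under 0.05, beside 7.4% of all peaks), where 0.00916% of all peaks were called, and DESeq2 called 0. Departures from the sum of C and K numbered 0 (4 at an unadjusted p under 0.05, beside 3.7% of all peaks, and by DESeq2 0), where 0.0107% of all peaks were called. For locus sums, 0 of the 6 members were called in CK against C, CK against K, or CK against the sum of C and K, where 4.01%, 0.0% and 0.0885% of all windows were called.

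Per kb of peak, the loci ranked in WT as Xbp1 at 19.1 CPM per kb, Irf4 at 16.8, Jchain at 13.7, Prdm1 and Tnfrsf17 at 10.5 each, and Sdc1 at 4.83. The same order held in C, K and CK, with Jchain at 13.1, 12.8 and 12.5. The 6 loci did not move as 1 group over the 17 mice. Pearson's r between the log2 sums of member pairs ran from -0.41 for Prdm1 and Irf4 to 0.58 for Irf4 and Jchain, as a description of libraries that share their scaling.

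The genes on other chromosomes whose sums were most like that of Jchain over the 17 libraries were Cd84 (r = 0.96), Fcrlb (0.95) and Dusp12 (0.95). Their own changes in CK were -0.12 (adjusted p = 0.0083), -0.15 (0.0026) and -0.16 (0.0018) by edgeR. All 3 lie on chromosome 1, and windows of neighbouring genes can share peaks. For Irf4 these genes were Neu2, Itpkb and Gna13, each with r = 0.87, for Xbp1 Hras, Nfic and Rnh1, each with 0.91, and for Tnfrsf17 Igf2r (0.82), Tmem135 (0.79) and Ier2 (0.77). For Prdm1 they were Mrpl22 (0.79), Zfp106 (0.73) and Ola1 (0.72), and for Sdc1 Mib1 (0.87), Dcun1d4 (0.84) and Ranbp9 (0.84). Each is the highest of 12745 to 13565 genes compared, so a high value comes with the choice.

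Other genes of the plasma cell program gave a mixed picture. Of 16 genes on the list, all with a window, 1 sum was higher and 2 were lower in CK, and 0 were called in C or K by edgeR, where 11.7% of all windows were called in CK, 0.454% in C and 2.66% in K. The sum of Cd28, a costimulatory receptor of long-lived plasma cells, fell by 0.3 on the log2 scale (SE 0.058, adjusted p = 0.00073 by edgeR), from 59.3 ± 5.31 CPM (SD, n = 4) to 48.1 ± 1.57 (SD, n = 5). Of the 11 peaks in its window 1 was called, and no consensus peak lay within 1 kb of the Cd28 start. Atf6, a sensor of the unfolded protein response, fell by 0.12 (SE 0.026, adjusted p = 0.0021). Fkbp11, an endoplasmic reticulum peptidyl-prolyl isomerase, rose by 0.16 (SE 0.036, adjusted p = 0.0028). The promoter peak of Tnfrsf13b, which encodes the receptor TACI, fell by 0.27 (SE 0.069, adjusted p = 0.009), the 1 call among 14 promoter peaks, where 10.1% of all peaks near a start were called. The median change of the 16 sums in CK was -0.03, beside 0.03 over all windows.

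Genes that hold B cells back from plasma cell fate were also followed. Of 11 genes, 1 sum was called in CK, beside the same 11.7% of all windows. This was Irf8, a regulator of the GC program, which fell by 0.17 (SE 0.042, adjusted p = 0.0066 by edgeR). The promoter peak of Foxp1 rose by 0.31 in CK (SE 0.054, adjusted p = 0.0004) and by 0.29 in K (SE 0.057, adjusted p = 0.0038). That of Mitf rose by 0.92 in CK (SE 0.13, adjusted p = 3.7e-05) from a low 3.49 CPM. These were 2 calls in CK among 11 promoter peaks, beside the same 10.1%. No other promoter or sum of this list, which includes Bcl6, Pax5 and Bach2, was called against WT in C, K or CK by edgeR. The median change of the 11 sums in CK was -0.06.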

How the data were processed

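Sorted splenic GC B cells of 17 mice were profiled by ATAC-seq. Reads went through nf-core's pipeline for ATAC-seq, from which the authors deposited 1 table of raw counts of fragments per consensus peak, made with featureCounts 2.0.1 without strand on mm10, with 65483 peaks of 910 bp median length. Another 7 WT centroblast and centrocyte samples were not analysed here.

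Groups came from the genotype labels. All 65483 peaks, each with at least 10 counts in all, were fitted with edgeR 4.0.16 (R 4.3.3), TMM scaling and 1 coefficient per genotype, and p-values were adjusted by Benjamini-Hochberg over all peaks, with calls at an adjusted p under 0.01. Locus sums add the peaks within 50 kb of a GENCODE gene (GRCm38) and were tested over 18069 protein-coding genes. DESeq2 1.42.0, other scalings, filters, windows, a replicate block, GC content bins and leaving out each mouse were alternatives, and fits within libraries with or without Y chromosome signal were added after seeing the data. The members and gene lists were chosen with earlier results of these data known.

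The named peaks are, for each gene, the promoter peak (within 1 kb of the start), the highest peak elsewhere, the peak with the lowest p in CK, and every called peak. A few further peaks were chosen after their values were seen: those of Irf4 at 11.7 kb upstream, of the Snx29 start, and of Jchain at 27.7 and 31.6 kb. Genes of similar pattern are the 3 on other chromosomes with the highest Pearson r of log2 locus sums, among those of at least 50 CPM. Genes of the other lists are named where called. The sequence of 1 called peak is not reported here.

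Deviations of same-numbered WT and C mice correlated at 0.15 to 0.22 in all 4 pairs, and these mice also share presence or absence of Y signal. Different-numbered WT and C mice alike in Y signal gave 0.078 to 0.17. A pairing by number therefore cannot be told apart from Y signal, and the fit with 1 coefficient per genotype used no pairing. The replicate number was a block only in alternative fits. The block changed no call for C against WT. The mice are separate animals, and counts cover counting error only within each library. In tests on simulated data for CK against WT, 5 of 200 peaks changed 1.25-fold and 93 of 200 changed 1.5-fold were called among 65483. Of loci, 28 of 200 changed 1.1-fold and 175 of 200 changed 1.25-fold were called among 18069. Each simulation changed only 200 features and gave all features the same spread between mice. In the data 6.84% of peaks and 11.7% of loci were called in CK. The simulated counts therefore do not give the share of real changes of such a size that were called.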

Additional observations from a re-analysis of the deposited data

Results flagged for a closer look

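Among 88 groups of 4 or 5 mice, 3 held a mouse far from the others of its genotype by Dixon's 95% value, and chance alone gives about 1 in 20 such groups. The Jchain locus sum of WT replicate 4 was 327.0 CPM, with the other WT mice at 301.7 to 304.2 CPM. The Sdc1 locus sum of K replicate 3 was 44.6 CPM, with the other K mice at 48.6 to 49.4 CPM. The peak over the Ccdc117 start in the Xbp1 window had 56.5 CPM in C replicate 2, with the other C mice at 52.2 to 52.8 CPM.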

How the results depend on the processing

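The count of member peaks called in CK against WT, 4 of 70, became 9 at an adjusted p of 0.05, 7 by DESeq2, 7 with the replicate block, 2 with GC content bins, 0 with a log2 fold change beyond log2(1.5), 1 with Y signal present only and 1 with Y signal absent only. DESeq2 and the block both added the Jchain promoter, and beyond it DESeq2 added the Irf4 intronic and Sdc1 promoter peaks and the block 2 upstream Irf4 peaks. Leaving out each mouse gave 2 to 4 calls, with 2 without WT replicate 3 or WT replicate 4. An equal count could hold other peaks. Without CK replicate 4, the Irf4 intronic peak (higher, 0.92, adjusted p = 0.0044 by edgeR) and the Jchain promoter replaced the Prdm1 and Jchain upstream peaks. Without CK replicate 3, the Sdc1 promoter (higher) replaced the Jchain upstream peak. For K against WT, 0 calls became 4 at an adjusted p of 0.05, 1 by DESeq2 and 2 with the replicate block. For CK against C, 1 call became 7 at 0.05, 3 by DESeq2, 4 with the replicate block, 2 with Y signal as a covariate, and 0 with log2(1.5), GC content bins or either set of libraries by Y signal, and leaving out each mouse gave 0 to 1. For locus sums in CK, 1 call became 2 at 0.05, 0 with log2(1.5) and 0 in either set by Y signal, and leaving out each mouse gave 0 to 1 (0 without WT replicate 4). In K the replicate block gave 1 locus call, Jchain (-0.09, adjusted p = 0.0067 by edgeR). The counts for C against WT, CK against K and the sum of C and K were 0 in every alternative run.

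Values that lay near 0 in the results above changed sign in some alternatives, and the cause was not tested. Locus sums in C against WT did so for Prdm1 (-0.01 with Y signal present, -0.006 to 0.023 leaving out each mouse), Irf4 (0.006 with a 100-kb window, 0.007 with total counts, 0.004 with loess offsets, 0.006 with Y signal absent) and Xbp1 (0.005 with Y signal present). In K they did so for Prdm1 (0.13 with Y signal absent, -0.065 to 0.002 leaving out each mouse), Irf4 (0.016 and 0.026 with 10-kb and 100-kb windows, 0.004 with GC content bins, 0.003 with the block added, 0.02 with Y signal present, -0.054 to 0.021 leaving out each mouse) and Xbp1 (-0.003 with GC content bins, -0.004 with the block added, -0.005 to 0.04 leaving out each mouse). The 0.13 for Prdm1 rests on K replicate 2, the 1 K mouse without Y signal. Its Prdm1 sum of 135.3 CPM was the highest of the 17 libraries. In CK they did so for Prdm1 (0.009 with Y signal absent), Irf4 (0.012 and 0.0 with 10-kb and 100-kb windows), Xbp1 (0.009 with a 100-kb window) and Sdc1 (-0.001 with GC content bins and block). Among peaks in CK, that at the RefSeq promoter of Prdm1 gave 0.007 with total counts, 0.003 with GC content bins, 0.005 with the replicate block, 0.003 with both, 0.035 with Y signal absent and -0.018 to 0.019 leaving out each mouse. The far Prdm1 promoter gave 0.01 with Y signal absent (-0.052 to 0.005 leaving out each mouse), the Xbp1 promoter 0.052 with Y signal absent (-0.043 to 0.009), the Ccdc117 start 0.057 with Y signal present (-0.089 to 0.017), the Sdc1 promoter -0.003 with GC content bins and block, and the Sdc1 peak at +58.4 kb 0.049 with Y signal present (-0.15 to 0.066).

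Same-numbered mice of the other genotype pairs correlated between -0.12 and 0.2, so the numbers were not taken as pairs there either. The block still used them for all 17 libraries, with CK replicate 5 alone in its block. Calls in CK and K with the block therefore rest on a pairing that was not shown. Member peaks held 2 to 2017 fragments per library, and 8 of 70 were under 1 CPM, which limits what could be called there.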
